A study of Mus musculus with 8 samples.

Results

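Membrane repair genes were examined in the tibialis anterior (TA) muscle of old mice with and without fast myosin binding protein-C. The 10 members, *Dysf*, *Myof*, *Trim72*, *Cav3*, *Anxa1*, *Anxa2*, *Anxa4*, *Anxa5*, *Anxa6* and *Capn3*, were chosen by gene symbol as genes of membrane repair, and all 10 were found among the 16686 genes of the deposited count table. RNA came from 8 male mice of the FVBN background labelled as 22 months old, with 1 library per mouse. The 4 WT mice carried the intact *Mybpc2* gene, and in the 4 C2-/- mice a run of its exons had been replaced by a Neo cassette flanked by LoxP sites, with no Cre and no tissue restriction named in the labels. The labels name no treatment, and both groups share strain, sex, age and muscle. The growth protocol in the labels names a younger age, which is the same for both groups.

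The plasma membrane of a muscle fibre tears during contraction and is resealed by vesicles and proteins that gather at the wound when calcium enters. Dysferlin and the other ferlins are calcium-binding membrane proteins that take part in vesicle fusion, annexins bind phospholipids in a calcium-dependent way and form a cap over the lesion, and the protein encoded by *Trim72* (MG53) brings vesicles to it. Caveolin-3 forms the caveolae of muscle fibres, and calpain-3 is a muscle protease. Loss of *DYSF*, *CAV3*, *CAPN3* or *ANO5* is a known cause of limb-girdle muscular dystrophy in patients.

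The libraries held between 25425993 and 29747692 counts. At these totals 3 counts, the smallest level taken as measurable, equal 0.101 to 0.118 CPM, a floor which covers counting error only. CPM are counts scaled to the library total, and the CPM of genes and markers below were also divided by edgeR's TMM scaling factors. *Mybpc2*, the targeted gene, lay between 4963 and 7390 CPM in WT. In C2-/- it was at 4.35, 4.02, 38.3 and 3.85 CPM in replicates 1 to 4, so replicate 3 had more of this RNA than the others and was still far below every WT mouse (log2 fold change -8.82, adjusted p = 0.0075, edgeR's quasi-likelihood test). Summed markers of muscle fibres lay between 197624 and 264474 CPM in every mouse of either genotype, while slow-fibre markers summed to 34.9 to 70.6 CPM, far below the fibre markers in each mouse.

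A group of 5 genes lay above the other 5 in level, with no overlap between *Dysf* and *Anxa2*. Between genes, levels were compared per transcript length as deposited TPM, which counts transcripts relative to all transcripts of a library. *Anxa6* stood highest with a mean of 126 ± 15.3 TPM (SD over 8 mice), followed by *Capn3* with 94.9 ± 14.5, *Trim72* with 91.6 ± 14.4, *Cav3* with 55.6 ± 7.54 and *Dysf* with 49.7 ± 9.65 TPM. The other members were lower, with 24.0 ± 5.44 TPM for *Anxa2*, 15.3 ± 3.01 for *Anxa5*, 14.2 ± 3.30 for *Anxa4* and 11.6 ± 2.50 for *Anxa1*. *Myof*, the closest relative of *Dysf*, known from myoblast fusion, was lowest with 1.11 ± 0.47 TPM, or 0.23% of the summed level of the 10 genes. Neighbours whose ranges over the mice did not touch were *Trim72* and *Cav3*, *Dysf* and *Anxa2*, and *Anxa1* and *Myof*. *Capn3* was above *Trim72* in 6 of 8 mice, *Cav3* above *Dysf* in 5, *Anxa5* above *Anxa4* in 5 and *Anxa4* above *Anxa1* in 6, so these neighbours did not differ beyond their spread. *Anxa6* exceeded *Capn3* and *Anxa2* exceeded *Anxa5* in 8 of 8 mice, although their ranges overlapped.

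**Figure D1:**
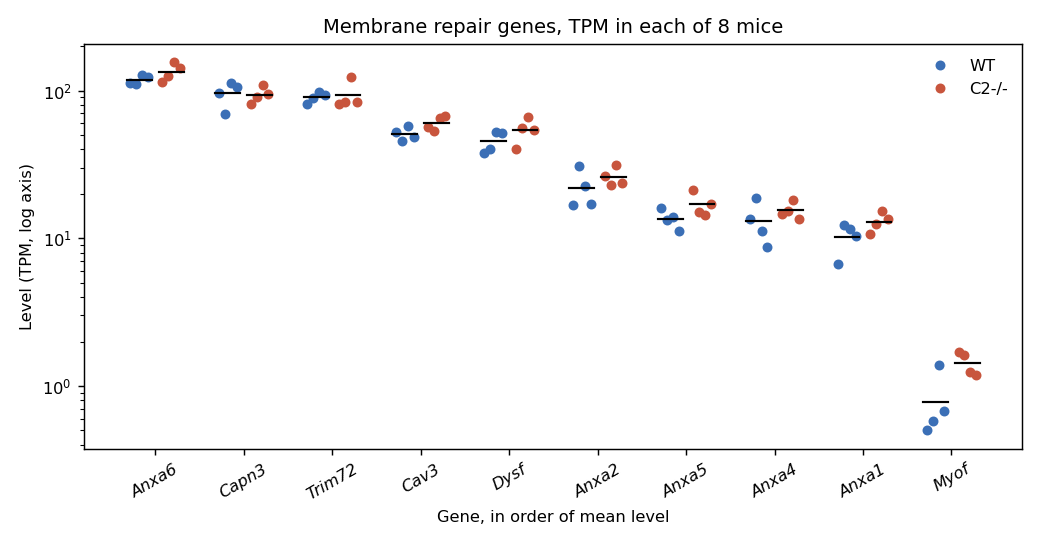
Level of each gene in TPM on a log axis, with 1 point per mouse (blue WT, red C2-/-, 4 mice each) and a bar at each group's mean. Mean levels over the 8 mice run from 1.11 TPM for Myof to 126 TPM for Anxa6, and the points of both genotypes overlap for every gene.

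Promoters of 2 high and 2 low members are shown, because these genes differ in level in the same muscle. They are windows of RefSeq on GRCm38.p6 from 250 bases before to 50 after an annotated start, and 9 of the 10 members matched, with *Anxa6* missing. The window of *Cav3* lies at chr6:112459255-112459554 on the plus strand, that of *Trim72* at chr7:128004128-128004427 on the plus strand, that of *Anxa2* at chr9:69453433-69453732 on the plus strand and that of *Myof* at chr19:38043528-38043827 on the minus strand. Capitals mark every match, on both strands, to 5 motifs chosen after the sequences had been seen. The E-box was searched as CANNTG. The letters of the MCAT motif were CATTCC. For AP-1 sites TGANTCA was used. Sp1 sites were taken as GGGCGG. The search for TATA boxes used TATAAA.
Cav3: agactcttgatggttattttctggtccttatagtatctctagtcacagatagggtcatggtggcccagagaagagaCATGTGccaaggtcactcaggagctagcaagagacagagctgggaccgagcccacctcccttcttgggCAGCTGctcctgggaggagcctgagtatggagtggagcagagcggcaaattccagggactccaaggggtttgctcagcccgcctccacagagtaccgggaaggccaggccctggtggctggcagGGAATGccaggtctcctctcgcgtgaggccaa
Trim72: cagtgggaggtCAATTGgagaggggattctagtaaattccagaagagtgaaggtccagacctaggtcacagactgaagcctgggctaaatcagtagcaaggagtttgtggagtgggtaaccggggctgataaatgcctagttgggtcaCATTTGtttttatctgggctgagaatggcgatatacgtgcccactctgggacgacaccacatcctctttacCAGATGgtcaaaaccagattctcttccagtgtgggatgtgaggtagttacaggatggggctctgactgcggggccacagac
Anxa2: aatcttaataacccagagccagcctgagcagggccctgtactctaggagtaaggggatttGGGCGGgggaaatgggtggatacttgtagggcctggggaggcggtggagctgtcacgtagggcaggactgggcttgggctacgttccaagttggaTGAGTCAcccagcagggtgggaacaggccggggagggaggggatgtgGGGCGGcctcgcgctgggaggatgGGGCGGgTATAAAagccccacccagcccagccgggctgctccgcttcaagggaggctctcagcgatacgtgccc
Myof: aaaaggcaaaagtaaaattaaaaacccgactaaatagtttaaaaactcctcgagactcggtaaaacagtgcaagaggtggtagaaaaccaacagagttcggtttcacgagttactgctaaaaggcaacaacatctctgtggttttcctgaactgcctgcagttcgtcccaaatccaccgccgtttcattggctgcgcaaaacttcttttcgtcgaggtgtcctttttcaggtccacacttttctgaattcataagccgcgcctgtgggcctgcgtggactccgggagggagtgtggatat
The *Cav3* window held 2 E-boxes and 1 MCAT motif, the *Trim72* window 3 E-boxes, the *Anxa2* window 1 AP-1, 3 Sp1 and 1 TATA motif, and the *Myof* window none of the 5. The 4 windows do not stand for all 12 of the members. *Anxa1* and *Anxa5*, both of low level, held 1 E-box each, as did 1 of 2 windows of *Anxa4*, and 1 of 2 windows of *Dysf* held no E-box. *Anxa1* also held 1 MCAT and 1 TATA motif. The 2 windows of *Dysf*, of high level, held 1 and 3 Sp1 motifs, and 1 of 2 windows of *Anxa4* held 1. No matches of different motifs overlapped in these windows. Of 32851 promoter windows of this length, 72.3% held an E-box, 14.7% MCAT, 7.81% AP-1, 35.7% Sp1 and 13.6% TATA. The matches describe letters in these windows only.

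Between the genotypes, no member of the 10 changed after adjustment over all 12542 genes tested, where 4 genes, or 0.0319%, were called at an adjusted p under 0.05 (DESeq2 called 39, and 0 of the members). All 10 passed edgeR's filter on low counts. One member, *Myof*, had an unadjusted p under 0.05, against 5.29% of all tested genes and 3.38% in that direction. Of the 663 genes at this threshold 424 were higher in C2-/-, and 533 of 678 when scaled by library totals alone. The fold change was above 0 for 8 members, as for 45.8% of all tested genes, and the median log2 fold change of the 10 was 0.18, against -0.02 over all tested genes. The groups overlapped for each of the 10 genes, while they did not overlap for 3.37% of all tested genes.

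**Figure D2:**
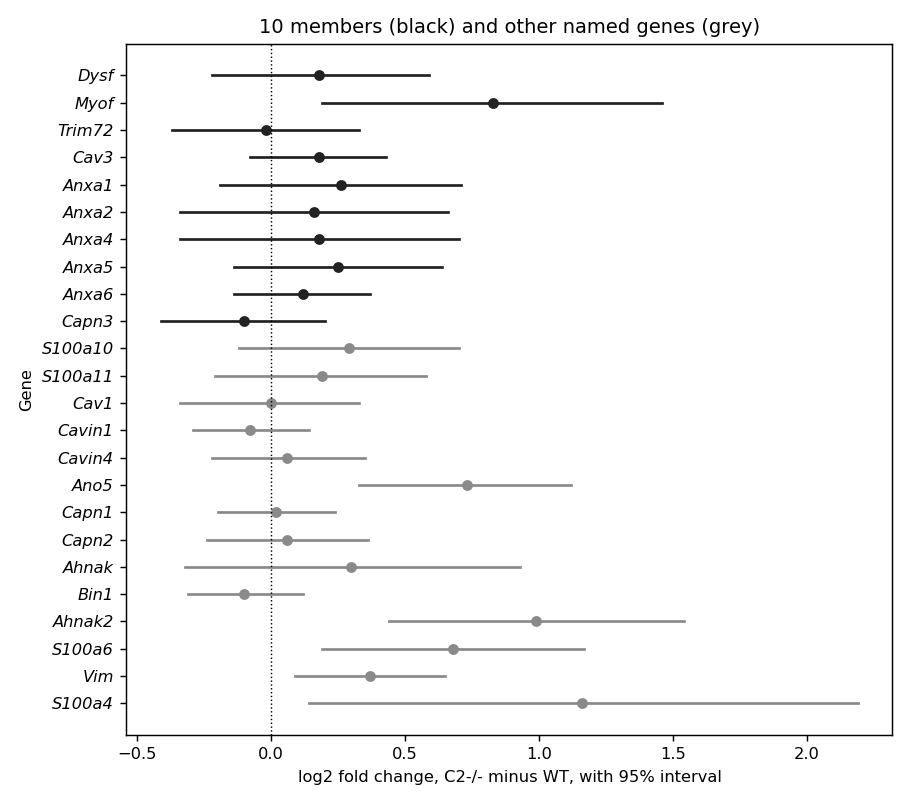
Points are log2 fold changes of C2-/- against WT from edgeR's quasi-likelihood test, with 95% intervals as lines, for the 10 members in black and the other named genes in grey. Among the members, only the interval of Myof, from 0.19 to 1.46, lies to 1 side of 0.

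The ferlins come first, since they act at vesicle fusion. *Dysf* (gene ID 26903) lies on chromosome 6 from 84008314 to 84211060 (GRCm38, plus strand). It was at 127, 135, 179 and 186 CPM in WT replicates 1 to 4 and at 132, 179, 222 and 180 CPM in C2-/- replicates 1 to 4. The lowest mice of both genotypes were close to each other, and only C2-/- replicate 3 was above all WT mice. The log2 fold change was 0.18 (SE 0.18, 95% interval -0.22 to 0.59, unadjusted p = 0.333, adjusted p = 0.968, edgeR), so that the interval held folds from 0.86 to 1.5. Without C2-/- replicate 3 the log2 fold change fell to 0.06. Exons of *Dysf* overlap those of the antisense genes Gm15475 and Gm33024, by 352 and 105 bases, and counting by strand is not stated.

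*Myof* (gene ID 226101, chromosome 19 from 37899036 to 38043577, minus strand) had the largest fold change among the 10. Its counts were 51, 67, 134 and 75 in WT and 176, 156, 134 and 125 in C2-/-, which gave 1.97, 2.44, 5 and 2.71 CPM in WT and 6.66, 5.80, 4.75 and 4.33 CPM in C2-/-. Each C2-/- mouse was above WT replicates 1, 2 and 4, but WT replicate 3 lay above C2-/- replicates 3 and 4. This gave a log2 fold change of 0.83 (SE 0.29, 95% interval 0.19 to 1.46, unadjusted p = 0.0155, adjusted p = 0.801, edgeR), which ranked 242nd by p among the 12542 genes tested. A two-sided exact permutation test of the mean log2 level gave p = 0.0857, where 4 mice against 4 allow no p under 0.0286, and is the smallest of the 10 run for the members. With each mouse left out in turn the log2 fold change stayed between 0.67 and 1.19. The highest value, with an unadjusted p of 0.0004 (adjusted p = 0.229, edgeR), came without WT replicate 3. That was the highest WT mouse, so leaving it out is bound to raise the fold change. *Dysf* exceeded *Myof* by 38.2 to 75.8 times in WT and by 23.8 to 52.7 times in C2-/- on the TPM scale, and these ranges overlapped.

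Fibroblast markers were also higher in C2-/-. The 8 markers summed to 408, 320, 525 and 394 CPM in WT and to 580, 619, 806 and 722 CPM in C2-/-, without overlap. Singly, 6 of the 8 did not overlap, against 2.02% of all tested genes in that direction, while *Pdgfra* and *Pi16* did. Most of the sum came from *Dcn*, with means of 235 CPM in WT and 294 in C2-/-, and from collagen genes. These were *Col1a1* with 50.7 and 125 CPM, *Col1a2* with 47.9 and 104 and *Col3a1* with 36.2 and 94.4. All 8 had fold changes above 0, against 45.8% of all tested genes. Of the 8, 5 passed the unadjusted threshold of 0.05, against 3.38% of all tested genes in that direction. The other 3 did not, and 0 passed the adjusted one (edgeR). Within WT, replicate 3 was highest for both *Myof* and the fibroblast markers, but in C2-/- the order differed, with replicate 1 highest for *Myof* and lowest for the markers. Tendon markers, 8 of 9 of which were tested, summed to 59.7 to 197 CPM in WT and 100 to 277 CPM in C2-/-. The part of these cells in the *Myof* value was not tested, and in whole muscle more cells of a type and more RNA per cell cannot be told apart.

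*Trim72*, whose product nucleates the repair patch, lies on chromosome 7 from 128001899 to 128011393 (gene ID 434246). It was at 125, 147, 140 and 145 CPM in WT and at 123, 116, 186 and 123 CPM in C2-/-. In C2-/-, 3 mice were below every WT mouse and replicate 3 was above them all. The log2 fold change of -0.02 (SE 0.16, 95% interval -0.37 to 0.33, adjusted p = 0.998, edgeR) has no stable sign, being 0.03 when scaled by library totals alone and -0.21 without C2-/- replicate 3. Exons of *Trim72* share 617 bases with the antisense gene Gm15533.

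*Cav3* (gene ID 12391, chromosome 6 from 112459505 to 112472872), the muscle caveolin, was among the steadiest members. It was at 32.8, 30.3, 32.0 and 29.6 CPM in WT, a coefficient of variation of 4.73%, and at 34.7, 29.7, 38.5 and 38.2 CPM in C2-/-. In C2-/-, replicates 1, 3 and 4 were above every WT mouse and replicate 2 lay at the low end of the WT range. Its fold change on the log2 scale was 0.18 (SE 0.12, 95% interval -0.08 to 0.43, unadjusted p = 0.152, adjusted p = 0.968, edgeR), with folds from 0.948 to 1.35 inside the interval. *Cav1*, the caveolin of non-muscle cells, was at 145 ± 30.4 CPM in WT and 145 ± 12.9 in C2-/- (SD, n = 4), and *Cavin1*, which gives caveolae their coat, was at 228 ± 8.67 and 217 ± 12.3 CPM. *Cavin4*, the muscle cavin, was at 112 ± 12.1 and 117 ± 15.6 CPM. Of all 12 caveolar genes of the list, 7 had fold changes above 0 and 5 below, with 0 below the unadjusted threshold, against 5.29% of all tested genes. Their log2 fold changes lay between -0.22 and 0.33. The highest was that of *Cavin3*, another cavin, with 11.6 ± 2.09 CPM in WT and 14.6 ± 1.26 in C2-/- (unadjusted p = 0.0509, adjusted p = 0.943, edgeR), a gene named after its value was seen.

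The 5 member annexins all had fold changes above 0, against 45.8% of all tested genes. None reached an unadjusted p under 0.05, against 5.29% of all tested genes. *Anxa6* (gene ID 11749, chromosome 11 from 54978962 to 55033473), the long annexin with a doubled core, was at 163, 168, 166 and 178 CPM in WT and at 164, 163, 213 and 191 CPM in C2-/-. Its WT mice differed little, with a coefficient of variation of 3.93%, and the C2-/- mice were split between that level and a higher one. C2-/- against WT gave a log2 fold change of 0.12 (SE 0.12, 95% interval -0.14 to 0.37, unadjusted p = 0.337, edgeR) and fell to 0.03 without C2-/- replicate 3.

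*Anxa2* (gene ID 12306, chromosome 9 from 69453683 to 69491792) was at 13.4, 25.3, 15.5 and 12.9 CPM in WT and at 20.0, 15.9, 23.1 and 16.1 CPM in C2-/-. WT replicate 2 was the highest of all 8 mice, while the other WT mice were below every C2-/- mouse. *Anxa4* (gene ID 11746, chromosome 6 from 86733470 to 86793593) was at 12.9, 21.1, 10.7 and 9.44 CPM in WT and at 15.1, 14.7, 18.2 and 13.3 CPM in C2-/-, again with WT replicate 2 highest and the other WT mice below every C2-/- mouse. *Anxa1* (gene ID 16952, chromosome 19 from 20373434 to 20390673) was at 5.09, 10.1, 7.88 and 7.71 CPM in WT and at 7.98, 8.48, 11 and 9.32 CPM in C2-/-. WT replicate 2 was here the second highest mouse, below C2-/- replicate 3. The log2 fold changes were 0.16 (SE 0.22) for *Anxa2*, 0.18 (SE 0.24) for *Anxa4* and 0.26 (SE 0.20) for *Anxa1*, with unadjusted p = 0.489, 0.460 and 0.232 (adjusted p = 0.982, 0.976 and 0.968, edgeR).

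These annexin values moved with single mice in both directions. Without WT replicate 2, the mouse seen above to be high, the log2 fold changes were 0.44 for *Anxa2* (unadjusted p = 0.0176, adjusted p = 0.704), 0.48 for *Anxa4* (unadjusted p = 0.00945, adjusted p = 0.617) and 0.42 for *Anxa1* (unadjusted p = 0.0438, adjusted p = 0.815, edgeR), so 4 of the 10 members, with *Myof*, then passed the unadjusted threshold, against 5.89% of the 12672 genes tested without that mouse, and 0 the adjusted one. This mouse was the highest WT mouse for these annexins, so leaving it out is bound to raise their fold changes. These p-values and their count are thus no support for a difference. The fold changes fell to 0.05 for *Anxa2* without C2-/- replicate 3, to 0.06 for *Anxa4* without WT replicate 4 and to 0.10 for *Anxa1* without WT replicate 1. WT replicate 2 stood apart in other genes too. The summed level of 6 genes (5 of them tested) of regenerating or denervated fibres was 64.6 CPM in this mouse, 22.8 to 25.1 CPM in the other WT mice, 43.1 CPM in C2-/- replicate 3 and 23.7 to 26.5 CPM in the other C2-/- mice. The myogenic factor gene *Myog* was at 16.7 CPM in WT replicate 2 against 2.68 to 4.90 CPM in the other WT mice, and *Ncam1*, an adhesion molecule of denervated and regenerating fibres, at 38.2 against 13.8 to 15.7 CPM. *Myh3*, the embryonic myosin, was not raised there, with 1.60 CPM, and was highest in C2-/- replicate 3 with 8.76 CPM. *Myh8*, another myosin of the list, was lowest of all mice in WT replicate 2 with 1.59 CPM and highest in C2-/- replicate 3 with 7.2 CPM. The mice with the highest sums, WT replicate 2 and C2-/- replicate 3, were the top pair for *Anxa1*, *Anxa2* and *Anxa4*. Of this pair, only C2-/- replicate 3 was high in these myosins. Macrophage markers summed to 87.1 and 97.3 CPM in this pair, against 35.7 to 74.7 CPM in the other 6 mice. *Lyz2* alone made up 35.9 and 34.5 CPM of these sums. *Lyz2*, *Cd68*, *C1qa*, *C1qb* and *Cd163* were highest in this pair. *Csf1r*, *Mrc1* and *Adgre1* were not, with 11.2, 5.58 and 0.839 CPM in WT replicate 2 against 14.1, 5.94 and 1.61 CPM in WT replicate 3. Neutrophil genes set WT replicate 2 apart from all others, with *S100a8* at 12.8 CPM against 0.0347 to 1.19 and *S100a9* at 16.7 CPM against 0.208 to 2.17. Their part in the annexin values was not tested.

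**Figure D3:**
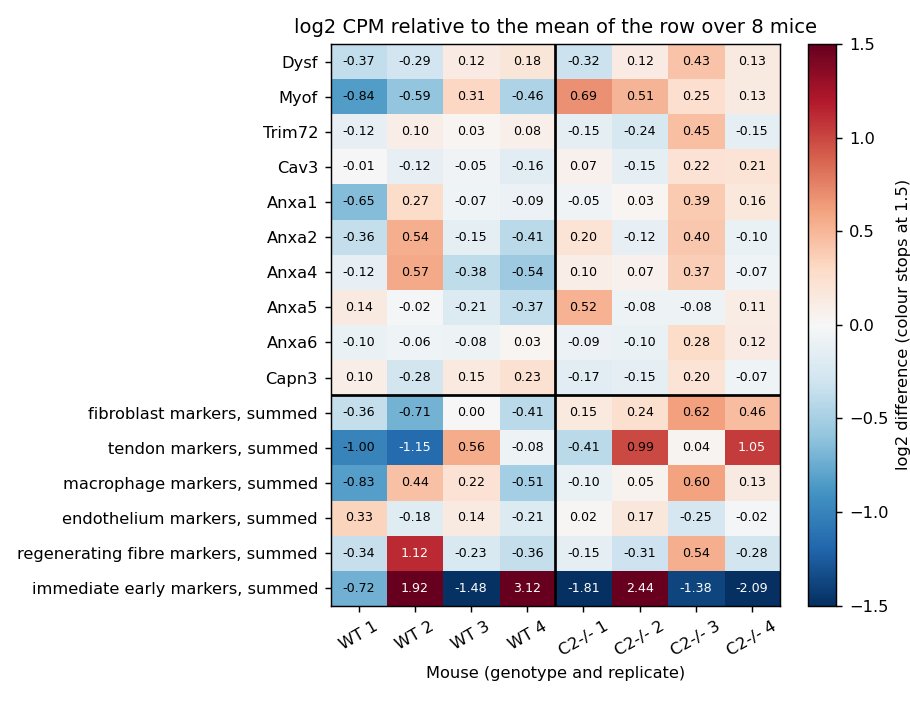
Each cell gives a mouse's log2 CPM minus the mean of the row over the 8 mice, for the 10 genes above the black line and for summed marker lists below it. WT replicate 2 is high for Anxa1, Anxa2, Anxa4 and the regenerating fibre markers, with 0.27, 0.54, 0.57 and 1.12, and C2-/- replicate 3 is above the mean for 9 of the 10 genes.

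*Anxa5* (gene ID 11747, chromosome 3 from 36448923 to 36475887), known as the protein used to stain exposed phosphatidylserine, had another order of the mice. It was at 15.2, 13.5, 11.8 and 10.5 CPM in WT and at 19.9, 12.9, 12.9 and 14.8 CPM in C2-/-. Only C2-/- replicate 1 was above all WT mice. The log2 fold change of 0.25 (SE 0.18, 95% interval -0.14 to 0.64, unadjusted p = 0.188, adjusted p = 0.968, edgeR) fell to 0.09 without that mouse.

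*Capn3* (gene ID 12335, chromosome 2 from 120463593 to 120505330) was, with *Trim72*, a member with a fold change below 0. It was at 172, 133, 178 and 188 CPM in WT and at 143, 144, 185 and 152 CPM in C2-/-, and the whole range of C2-/- lay within that of WT. On the log2 scale the fold change was -0.10 (SE 0.14, 95% interval -0.41 to 0.20, unadjusted p = 0.474, adjusted p = 0.980, edgeR). Its exons share 386 bases with *Ganc*, a neighbour on the same strand. Of 9 other genes of the calpain system, 5 were higher and 4 lower. The ubiquitous calpains did not pass the test either, with 166 ± 13.8 and 168 ± 5.41 CPM for *Capn1* and 63.1 ± 5 and 65.7 ± 11.2 CPM for *Capn2* in WT and C2-/- (SD, n = 4). Exons of *Capn1* and *Capn2* share 394 and 1717 bases with the antisense genes Gm10814 and Gm37885.

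C2-/- replicate 3 was the highest of the 8 mice for 5 members, *Dysf*, *Trim72*, *Cav3*, *Anxa1* and *Anxa6*, and WT replicates 1 and 4 were each the lowest for 4. It is also the C2-/- mouse with the most remaining *Mybpc2* RNA, and whether this is related was not tested. Without it the fold change above 0 remained for 8 of 10 members, but that of *Dysf*, *Anxa2* and *Anxa6* fell to 0.06, 0.05 and 0.03.

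**Figure D4:**
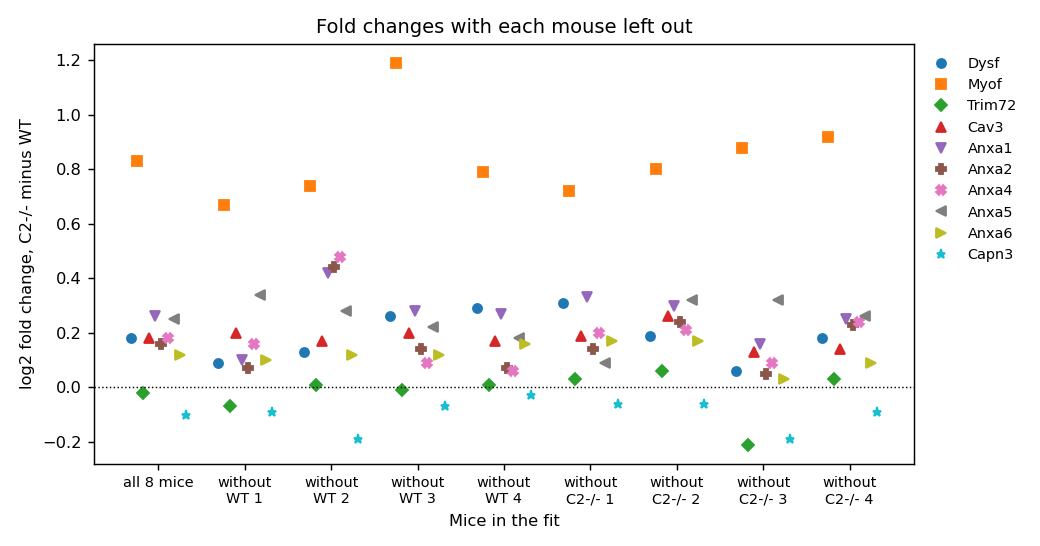
Log2 fold changes of the 10 members with all 8 mice and with each mouse left out in turn (edgeR). Trim72 lies on both sides of 0 (-0.21 to 0.06), Capn3 below it and the other 8 above it, Myof stays between 0.67 and 1.19, and Anxa1, Anxa2 and Anxa4 rise to between 0.42 and 0.48 without WT replicate 2.

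Other genes of membrane repair were taken from a list of 64, of which 61 were in the table and 58 were tested. The list was chosen with earlier results of these data known, so its counts are not independent of these data. Of these, 37 had a fold change above 0 and 21 below 0, with a median of 0.04. At the unadjusted threshold of 0.05 stood 5 higher genes, against 3.38% of all tested genes in that direction, and 0 lower genes, against 1.91%, while 0 passed the adjusted threshold (edgeR). The 5 were *Ano5*, *Ahnak2*, *S100a6*, *Vim* and *S100a4*. Among genes of membrane scission and fusion, 0 of 9 of ESCRT and ALG-2 and 0 of 8 of fusion and lysosomal exocytosis had an unadjusted p under 0.05. The share over all tested genes was 5.29%. Log2 fold changes of these genes of scission and fusion lay between -0.15 and 0.14.

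*Ano5* (gene ID 233246, chromosome 7 from 51510017 to 51598707), the anoctamin that takes part in annexin recruitment to membrane wounds, did not overlap between the genotypes. It was at 90.4, 67.8, 127 and 107 CPM in WT and at 160, 142, 171 and 175 CPM in C2-/-, and every C2-/- mouse was above every WT mouse, the case for 2.02% of all tested genes. The log2 fold change was 0.73 (SE 0.18, 95% interval 0.33 to 1.12, unadjusted p = 0.0021, adjusted p = 0.571, edgeR). The two-sided exact permutation test gave its smallest possible p, 0.0286, which it must give for groups that do not overlap. That p therefore adds nothing to the missing overlap. The fold change stayed between 0.59 and 0.88 with each mouse left out, and over all alternatives its adjusted p lay between 0.0522 (DESeq2) and 1. *Ahnak2*, a scaffold protein gene related to *Ahnak*, also had no overlap, with 2.89, 4.05, 4.18 and 3.04 CPM in WT and 4.84, 5.73, 10.3 and 7.24 CPM in C2-/- (log2 fold change 0.99, SE 0.25, unadjusted p = 0.00245, adjusted p = 0.571, edgeR).

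Some S100 proteins bind annexins. *S100a6* was at 14.8 ± 4.75 CPM in WT and 23.6 ± 4.29 CPM in C2-/- (SD, n = 4), a log2 fold change of 0.68 (SE 0.22, unadjusted p = 0.0115, adjusted p = 0.755, edgeR), with 3 of 4 C2-/- mice above every WT mouse. *S100a4*, known from fibroblasts and leukocytes, was at 1.96 ± 1.03 and 4.39 ± 2.20 CPM, with a wide spread in both groups (log2 fold change 1.16, SE 0.46, unadjusted p = 0.0293, adjusted p = 0.892, edgeR), and its unadjusted p rose to as much as 0.105 under the alternatives. *S100a10*, which pairs with annexin A2, was at 8.01 ± 1.33 and 9.78 ± 1.98 CPM, and *S100a11*, a partner of annexins A1 and A2, at 15.3 ± 3.96 and 17.4 ± 2.29 CPM, with adjusted p = 0.968 for both. All 6 S100 genes of the list had fold changes above 0, against 45.8% of all tested genes, with log2 values from 0.03 to 1.16. Of the 6, 2 passed the unadjusted threshold, against 3.38% of all tested genes in that direction. On the TPM scale *S100a10* was at 0.814 to 1.54 times the level of *Anxa2* in WT and at 1.03 to 1.39 times in C2-/-, ranges that overlapped. *S100a11* has 2 processed pseudogenes of 98.7% and 99% identity over 297 bases, neither of which has counts here, so its values are uncertain.

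*Vim*, the intermediate filament gene of mesenchymal cells, was at 83.1, 87.3, 91.8 and 81.9 CPM in WT and at 104, 122, 128 and 91.2 CPM in C2-/- (log2 fold change 0.37, SE 0.13, unadjusted p = 0.0138, adjusted p = 0.778, edgeR). C2-/- replicate 4 fell just below the highest WT mouse. *Bin1*, which shapes T-tubules, was at 832 ± 42.6 and 779 ± 24.5 CPM (adjusted p = 0.968). The summed fibroblast markers, given above, did not overlap between the genotypes, and their part in *S100a4*, *S100a6*, *Vim*, *Ano5* and *Ahnak2* was not tested.

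**Figure D5:**
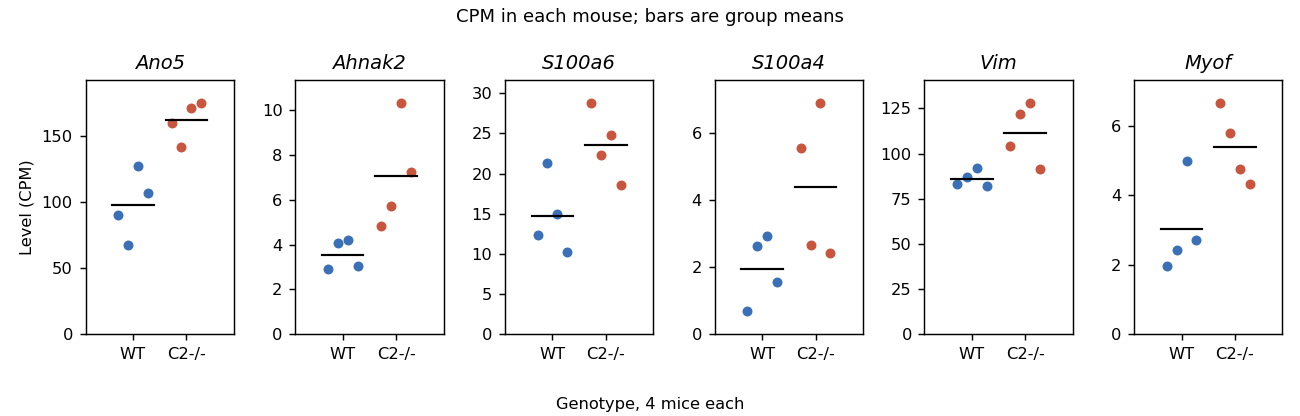
CPM of 5 listed genes and of Myof in each mouse (blue WT, red C2-/-, 4 mice each), with bars at the group means and axes that start at 0. The points of the genotypes are apart for Ano5 and Ahnak2 and overlap for the other 4 genes.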

How the data were processed

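The authors enriched mRNA with oligo(dT) beads and aligned the reads with HISAT to GRCm38.p6 and, per the paper's methods, counted them with featureCounts; the labels' tools also name Bowtie2. The deposited expected counts per gene had not been normalized and 5.5% to 6.53% of values per mouse are not whole, so they are estimated counts and were rounded. The deposited TPM values are scaled by gene length by the authors and were used only to compare levels between genes. The table also holds the authors' DESeq2 comparison (log2 fold changes, p and q), which was not used, nor were 8 columns of FPKM. The strand given for *Myof*, *Anxa4*, *Cavin1* and *Capn2* in the table differs from GENCODE vM21, whose strand is used here.

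Genotypes, taken from the labels, were compared with edgeR 4.0.16 (R 4.3.3): TMM factors, the default filter, the quasi-likelihood test and Benjamini-Hochberg adjustment over 12542 genes. Standard errors come from the fold change and the root of F, and CPM carry TMM factors. Log2 levels for the exact permutation tests (scipy 1.17.1) are log2(CPM + 0.5). Alternatives were RLE factors, library totals alone, limma-voom (limma 3.58.1, the test of the study's methods) without and with quality weights, DESeq2 1.42.0, no filter, at least 10 counts in every mouse, a replicate block, and leaving out each mouse.

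The members and lists were chosen with earlier results of these data known. Named genes are the 10 members, 10 partner genes whatever their values (*S100a10*, *S100a11*, *Cav1*, *Cavin1*, *Cavin4*, *Ano5*, *Capn1*, *Capn2*, *Ahnak* and *Bin1*), listed genes with an unadjusted p under 0.05, and *Mybpc2*. *Myog*, *Ncam1*, *Myh3*, *Myh8*, *S100a8*, *S100a9* and the 8 macrophage markers, from marker lists, were named after their values were seen. So were the fibroblast markers *Pdgfra*, *Pi16*, *Dcn*, *Col1a1*, *Col1a2* and *Col3a1*. Protein sequences were not analysed here. The spread between libraries holds biological and technical spread together.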

Additional observations from a re-analysis of the deposited data

Results flagged for a closer look

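In 76 groups of 4 mice, for named genes and summed marker lists, a highest or lowest mouse was tested for its gap to the nearest other mouse relative to the range, and 7 groups exceeded Dixon's critical value, where chance flags about 1 in 20. *Trim72* was at 186 CPM in C2-/- replicate 3, above the other C2-/- mice. *Cavin1* was at 198 CPM in C2-/- replicate 1, below the other C2-/- mice. *Mybpc2* was at 38.3 CPM in C2-/- replicate 3, above the other C2-/- mice. Regenerating fibre markers summed to 64.6 CPM in WT replicate 2 and to 43.1 CPM in C2-/- replicate 3, each above the rest of its group. Slow-fibre markers summed to 70.6 CPM in WT replicate 4, and immediate early genes to 641 CPM in C2-/- replicate 2. The latter was high within its group only, since WT replicates 2 and 4 were at 445 and 1024 CPM for these genes.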

How the results depend on the processing

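Of 160 fold changes of the members under 16 alternatives, 154 kept their direction and their side of the adjusted threshold, and 0 crossed it. The other 6 belong to *Trim72*, which changed sign to 0.03 with library totals alone and ranged from -0.21 to 0.06 with 1 mouse left out. Among partner genes, *Cav1* changed sign to 0.05 with library totals alone, 0.00 with no filter, 0.01 with at least 10 counts in every mouse, 0.02 with the replicate block, 0.02 with limma-voom and 0.10 with quality weights, and ranged from -0.09 to 0.14 with 1 mouse left out. With 1 mouse left out, *Cavin4* ranged from -0.02 to 0.13, *Capn1* from -0.02 to 0.08 and *Capn2* from -0.06 to 0.14. Members at an unadjusted p under 0.05 numbered 2 with quality weights (*Myof* and *Anxa4*, against 6.29% of all genes tested) and between 1 and 4 with 1 mouse left out, the highest without WT replicate 2 (against 5.89%). As given above, leaving out that mouse is bound to raise the fold changes of *Anxa1*, *Anxa2* and *Anxa4*. Higher listed genes at an unadjusted p under 0.05 numbered 8 with quality weights (against 4.18% of all genes in that direction) and between 4 and 8 with 1 mouse left out, with 8 without WT replicate 2 (against 4.05%) and 8 without WT replicate 3 (against 4.57%). Genes called over the whole table numbered 39 with DESeq2 and between 4 and 7 with 1 mouse left out. On the replicate block, 4 genes were called over the whole table, as without it. Same-numbered mice correlated by 0.267, 0.042, -0.0507 and 0.0212 in their deviations over all genes, and only number 1 was the best partner of itself. These values show no clear pairing of the mice by number, and 4 correlations cannot exclude one. The count of members without overlap was 0 also on deposited TPM, an alternative added after the data were seen. Where values changed, the cause was not tested. At 51 to 176 counts per mouse, *Myof* carries more counting error than the other members.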

Other observations

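*Ahnak*, the large scaffold of the dysferlin and annexin complex, differed between mice far more in CPM than in TPM. It was at 89.5, 113, 225 and 176 CPM in WT and at 128, 192, 240 and 184 CPM in C2-/-, a 2.68-fold range, but at 29.2 to 39.9 TPM in WT and 29.1 to 46.3 TPM in C2-/-, a 1.59-fold range. TPM per CPM differed 1.86-fold between mice for *Ahnak*, against 1.12-fold for *Dysf* and 1.18-fold for *Myof*. The effective length behind the deposited TPM of *Ahnak* thus differed from mouse to mouse, and the transcripts behind it were not tested. Its log2 fold change was 0.30 (SE 0.28, adjusted p = 0.968, edgeR).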
